A study of Mus musculus with 8 samples.

Results

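A set of 10 genes that identify microglia were followed through RNA sequencing libraries of purified mouse retinal ganglion cells. The members are Csf1r, Cx3cr1, P2ry12, Aif1, Tyrobp, Fcer1g, Laptm5, Trem2, Cd68 and Cebpa. They were chosen by gene symbol, and all 10 were found once among the 24942 genes of the deposited table. The cells were taken at postnatal day 8 from NPC1-deficient mice and their wildtype littermates, in a BALB/cNctr-Npc1m1N/J strain. They were held on antibody-coated plates (immunopanning), and RNA was extracted directly from the plate. Each group has 4 libraries, here called WT 1 to 4 and NPC 1 to 4. The allele is inherited through the germline, so microglia of NPC1-deficient mice carry it as the neurons do. How many animals made a library is not labelled, and the tests therefore see the spread among libraries, which may in part be technical. Sex-linked RNA, given below, differed among the wildtype libraries.

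Microglia are the resident macrophages of brain and retina. They depend on signalling through the receptor CSF1R, sense neurons through CX3CR1 and P2RY12, and pass signals from surface receptors such as TREM2 through small adaptor proteins, DAP12 (gene Tyrobp) and the Fc receptor gamma chain (gene Fcer1g), which recruit the kinase SYK. Their identity is set by myeloid transcription factors, among them PU.1 and members of the C/EBP family. NPC1 exports cholesterol from the lysosome.

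Ganglion cell markers together were far more abundant than the microglial members in every library. The 12 ganglion cell markers examined had a mean log2 level of 13.3 to 13.5 in every library. The 10 microglial members together summed to 1224 to 5676 normalized reads in WT and 754 to 1345 in NPC libraries, against 276274 to 319246 for the 12 ganglion cell markers. A normalized read is a read divided by the size factor of its library. Library totals ran from 33030175 to 44050118 recovered reads. Npc1, which checks the labels, stood at 707 to 857 normalized reads in WT and 66.1 to 139.8 in NPC libraries. The groups follow the titles and descriptions, because the strain field contradicts them: it gives WT 1, WT 2, NPC 1 and NPC 2 as wildtype and the other 4 libraries as homozygous.

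WT 1 stood apart from the other wildtype libraries. Its members summed to 1224, against 3233 to 5676 in WT 2 to 4. It also had the most rod RNA (mean log2 level 8.64, against 7.45 to 8.02 in WT 2 to 4), the most haemoglobin RNA (Hbb-bs at 193, against at most 68.7 elsewhere) and almost no Y-linked RNA (a sum of 45.6 over 4 genes). Sex-linked RNA also differed between the groups. Xist, expressed from the inactive X chromosome of females, was at 595, 18.2, 238 and 164 in WT 1 to 4 and at no more than 68.1 in NPC libraries, and Y-linked sums were 1241 to 3093 in WT 2 to 4 and 2597 to 3788 in NPC libraries. The part of these differences in the results was not tested, and each member is given with and without this library. Whether fewer microglia or less RNA per microglial cell made a value lower cannot be told apart in these bulk libraries.

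All 10 members had lower mean levels in NPC libraries, but none passed the test over all genes. Log2 fold changes (NPC1-deficient against wildtype) ran from -1.89 for Csf1r to -0.64 for Cd68, with a median of -1.41. Over all 15386 genes tested the median was 0.0050, and 48% had a fold change below 0. All 10 members were below -0.5, as were 3.96% of all genes. With limma, 0 of 10 members fell, where 0.065% of all genes did. At an unadjusted p under 0.05, 9 of 10 were lower, against 4.37% of all genes. The edgeR quasi-likelihood test called 0 members (0.065% of all genes), and DESeq2 called 6 lower (1.29%), namely Csf1r, Cx3cr1, P2ry12, Aif1, Fcer1g and Cebpa. Without WT 1, all 10 members fell, where 0.851% of all genes fell and 0.936% changed in either direction, and the median was -1.82. WT 1 was the lowest wildtype library for every member, so leaving it out raises the wildtype means. The calls without it therefore describe dependence on this library and are not separate support. Leaving out any other single library gave no call of a member.

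**Figure D1:**
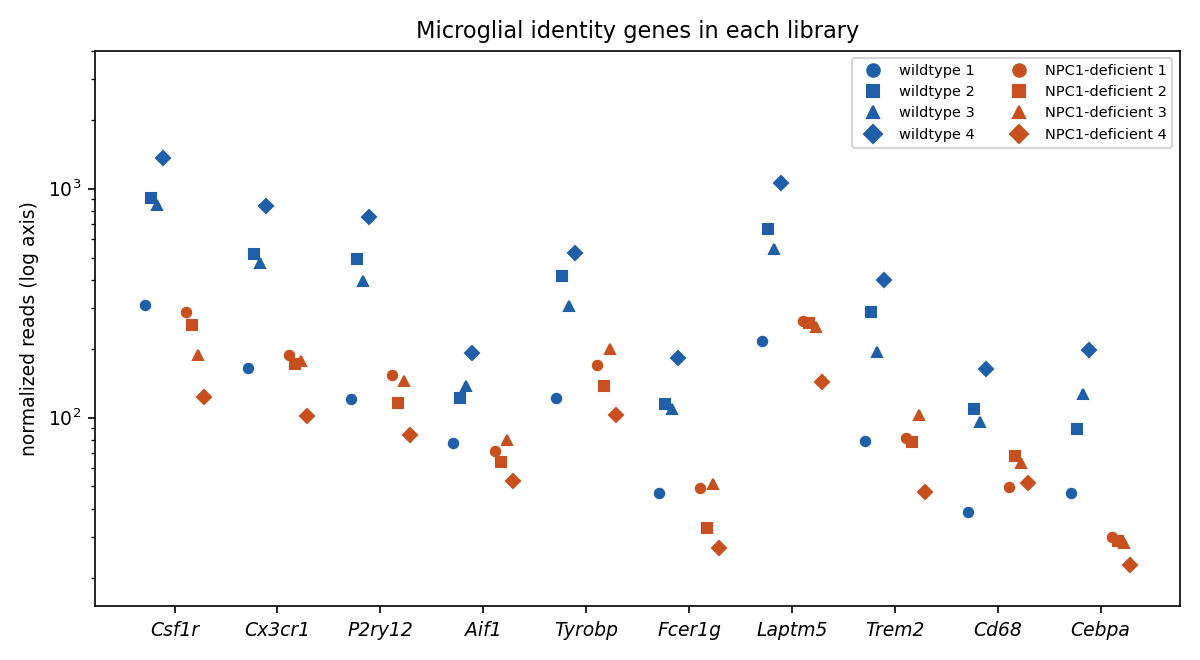
Normalized reads (log axis) of each of the 10 members in 4 wildtype and 4 NPC1-deficient libraries, with 1 point per library. WT 2 to 4 lie above every NPC1-deficient library for all 10 genes, while WT 1 lies above them for Csf1r and Cebpa, below them for Cd68 and among them for the other 7.

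Promoter sequence of the members is shown first, because PU.1 and C/EBP factors are the textbook regulators of such genes. Any part of these sequences in the differences between libraries or genotypes was not tested. Sequences are from RefSeq on GRCm38.p6, and 8 members other than Csf1r have an entry used here. The PU.1 core GAGGAA was searched on both strands in the 250 bases before each start as RefSeq gives it. It was found in 4 of the 8 (Aif1, Laptm5, Trem2 and Cd68), against 23.3% of 32851 promoters of the same length. The longer form GAGGAAGT, which contains the core, was found in 0 of the 8, against 2.44% of all promoters. The C/EBP pattern TTGCNNAA was found in 2 of the 8 (P2ry12 and Cd68), against 9.56%. A match is a description of the letters and not a bound site. The 3 promoters with a core match within 35 bases of the start are printed with Cebpa, whose groups did not overlap and which has no match. Each runs 5′ to 3′ on the gene's strand, with matches to the core or its reverse complement in capitals.
Aif1, chr17:35176053-35176302, minus strand: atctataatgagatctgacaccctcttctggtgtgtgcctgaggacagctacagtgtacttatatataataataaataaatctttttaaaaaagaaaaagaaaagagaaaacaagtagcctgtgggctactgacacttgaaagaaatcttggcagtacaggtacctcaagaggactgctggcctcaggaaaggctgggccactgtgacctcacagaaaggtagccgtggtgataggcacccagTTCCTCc
Laptm5, chr4:130913066-130913315, plus strand: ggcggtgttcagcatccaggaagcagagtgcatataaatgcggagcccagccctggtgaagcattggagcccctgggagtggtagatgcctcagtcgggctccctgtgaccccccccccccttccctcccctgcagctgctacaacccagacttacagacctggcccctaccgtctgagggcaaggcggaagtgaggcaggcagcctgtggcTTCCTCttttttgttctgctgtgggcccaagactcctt
Trem2, chr17:48346151-48346400, plus strand: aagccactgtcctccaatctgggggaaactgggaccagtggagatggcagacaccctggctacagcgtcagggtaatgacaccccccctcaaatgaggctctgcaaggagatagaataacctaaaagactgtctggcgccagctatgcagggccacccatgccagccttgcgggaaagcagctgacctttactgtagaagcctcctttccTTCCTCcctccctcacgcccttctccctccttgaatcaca
Cebpa, chr7:35119043-35119292, plus strand: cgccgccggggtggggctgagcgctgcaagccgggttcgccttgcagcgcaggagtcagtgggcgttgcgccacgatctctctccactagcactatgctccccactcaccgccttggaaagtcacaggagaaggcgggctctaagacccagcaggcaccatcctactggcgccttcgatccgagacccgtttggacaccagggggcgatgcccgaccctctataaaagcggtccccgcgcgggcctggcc
In Aif1 the match ends 2 bases before the RefSeq start, in Laptm5 33 and in Trem2 35. GENCODE places some starts elsewhere. There Laptm5 begins at 130913125 and Aif1, on the minus strand, at 35176068, so both matches lie inside the annotated gene. Trem2 begins at 48346401, and its match lies before the gene. All 3 matches are on the opposite strand.

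Csf1r and Cebpa were the only members whose groups did not overlap, a pattern shown by 2.41% of all genes tested in the same direction. Csf1r (ENSMUSG00000024621, mm10 chromosome 18, 61100598 to 61132149, plus strand) encodes the receptor for CSF1 and IL-34, on which microglia depend for survival. It stood at 311, 910.3, 846 and 1366 normalized reads in WT 1 to 4 and at 289, 254, 188 and 123 in NPC 1 to 4. WT 1 was only just above NPC 1, and the other 3 wildtype libraries were far above both. On the log2 scale the difference was -1.89 (SE 0.38, 95% interval -2.72 to -1.06, adjusted p = 0.0790 by limma). Without WT 1 it was -2.32 (limma adjusted p = 0.00373). With the library set (libraries 1 and 2 against 3 and 4, as the strain field divides them) as a term, Csf1r passed (limma adjusted p = 0.0480). That field gives a genotype and names no batch, so what the division stands for is not known. Of the exonic length of Csf1r, 15.1% is shared with Hmgxb3 on the opposite strand, and reads there cannot be assigned by strand. Hmgxb3 itself was at 402 ± 74.6 in WT and 421 ± 63.7 in NPC libraries (SD, n = 4).

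Cebpa (ENSMUSG00000034957, chromosome 7, 35119293 to 35121928, plus strand) encodes the transcription factor C/EBP-alpha, which directs myeloid differentiation. Its values were 46.7, 88.8, 127 and 197 in WT 1 to 4 and 29.9, 29.0, 28.3 and 22.7 in NPC 1 to 4. The NPC1-deficient libraries lay close together, with a coefficient of variation of 11.9%, the smallest of the members, against 55.6% in wildtype. They hold 33, 29, 26 and 22 reads of the gene, where counting error alone is larger than this spread. The closeness is therefore no measure of how steady the gene is. On the log2 scale the difference was -1.85 (SE 0.34, 95% interval -2.60 to -1.10, adjusted p = 0.0679 by limma). Without WT 1 it was -2.21 (limma adjusted p = 0.00373), and with the library set as a term it passed (limma adjusted p = 0.0229). Csf1r and Cebpa were the 2 members that passed in that fit, where 0.461% of all genes fell. The gene was read from 22 to 220 reads a library, fewer than the 119 to 1523 reads of Csf1r, and the antisense gene Gm45091 overlaps 1.93% of its exonic bases.

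Among the surface receptors that sense neurons, both were lower in all NPC1-deficient libraries than in WT 2 to 4, and for both genes the groups overlapped through WT 1. Cx3cr1 (chromosome 9, 119901616 to 120069879, minus strand) encodes the receptor for the neuronal chemokine CX3CL1. It stood at 165, 518, 475 and 842 in WT 1 to 4 and at 187, 171, 177 and 101 in NPC 1 to 4. By limma the genotypes differed by -1.47 in log2 (SE 0.39, adjusted p = 0.175), and -1.93 without WT 1 (limma adjusted p = 0.00404). P2ry12 (chromosome 3, 59216272 to 59262871, minus strand) encodes a receptor for ADP that guides microglial processes. Its values were 121, 494, 395 and 754 in WT 1 to 4 and 153, 116, 144 and 83.6 in NPC 1 to 4. From WT 1 to WT 4 it differed 6.24-fold, the widest such span among the 10 members. On the log2 scale the difference was -1.59 (SE 0.43, adjusted p = 0.198 by limma), and -2.12 without WT 1 (limma adjusted p = 0.00373).

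The ligands of CSF1R and CX3CR1 overlapped between the groups. Of 3 ligand genes tested, none passed or had an unadjusted p under 0.05, and their median log2 fold change was -0.0553. Cx3cl1, made by neurons, was at 5784 to 6606 in WT and 5021 to 7575 in NPC libraries. Il34 was at 95.7 to 122 in WT and 79.6 to 181 in NPC libraries. Csf1 was low, at 27.4 to 41.3 in WT and 19.6 to 33.0 in NPC libraries.

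Trem2 (chromosome 17, 48346401 to 48354147, plus strand) encodes a lipid-sensing receptor that signals through the Tyrobp product. Its values were 78.7, 289, 194 and 398 in WT 1 to 4 and 81.7, 78.1, 102 and 47.5 in NPC 1 to 4. This is a log2 difference of -1.44 (SE 0.41, adjusted p = 0.224 by limma), and -1.90 without WT 1 (limma adjusted p = 0.00683). Tyrobp (chromosome 7, 30413760 to 30417585, plus strand) stood at 122, 416, 308 and 524 in WT 1 to 4 and at 169.7, 137, 198 and 102 in NPC 1 to 4. In WT 1 it was below 3 of the 4 NPC1-deficient libraries. By limma the genotypes differed by -1.02 in log2 (SE 0.37, adjusted p = 0.465), and -1.46 without WT 1 (limma adjusted p = 0.00987).

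Fcer1g (chromosome 1, 171229572 to 171234365, minus strand), the adaptor of Fc receptors, was at 46.7, 114, 109 and 181 in WT 1 to 4. In NPC 1 to 4 it was at 49.0, 33.0, 51.2 and 26.8. WT 1 sat between the NPC1-deficient libraries, below 2 and above 2 of them. On the log2 scale the difference was -1.37 (SE 0.35, adjusted p = 0.155 by limma), and -1.74 without WT 1 (limma adjusted p = 0.00866). Of 11 genes for receptors coupled to these adaptors and the enzymes downstream, 9 had enough reads to test. None passed, 8 were lower, where 48% of all genes were, and the median log2 fold change was -1.46. Fcgr3, an Fc receptor that uses the gamma chain, was at 71.8, 226, 158 and 334 in WT 1 to 4 and at 82.6, 81.1, 62.1 and 33.0 in NPC 1 to 4. The log2 fold change of Fcgr1, the high-affinity Fc receptor, was -1.58, and that of the kinase gene Lyn -1.16. Without WT 1, Fcgr1, Fcgr3, Inpp5d and Lyn fell, where 0.851% of all genes did. Btk, a kinase gene, had enough reads to test only with WT 1 (1.14 normalized reads) left out, so its call there is not counted. Inpp5d, a phosphatase gene, and Btk are named here after their values were seen.

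Laptm5 (chromosome 4, 130913125 to 130936141, plus strand) encodes a lysosomal membrane protein of blood-derived cells. Its values were 217, 669, 547 and 1058 in WT 1 to 4 and 264, 258, 249.6 and 142 in NPC 1 to 4. This is a log2 difference of -1.27 (SE 0.38, adjusted p = 0.276 by limma), and -1.71 without WT 1 (limma adjusted p = 0.00683). Aif1 (chromosome 17, 35170991 to 35176068, minus strand) encodes IBA1, an actin-binding protein used to stain microglia. It stood at 77.5, 122, 137 and 191 in WT 1 to 4 and at 71.7, 64.0, 79.6 and 52.7 in NPC 1 to 4. Its span was the narrowest in wildtype, 2.47-fold from WT 1 to WT 4. By limma the genotypes differed by -0.91 in log2 (SE 0.24, adjusted p = 0.173), and -1.14 without WT 1 (limma adjusted p = 0.0170).

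Cd68 (chromosome 11, 69664213 to 69666153, minus strand) encodes a lysosomal membrane glycoprotein of phagocytes and differed least. It was at 38.8, 109, 96.0 and 163 in WT 1 to 4 and at 49.9, 68.0, 63.2 and 51.6 in NPC 1 to 4. WT 1 was below all 4 NPC1-deficient libraries, which holds for no other member. On the log2 scale the difference was -0.64 (SE 0.34, 95% interval -1.38 to 0.10, adjusted p = 0.828 by limma). Without WT 1 it was -1.04 (limma adjusted p = 0.0389). Among the members, Cd68 was thus the one with an interval that includes 0 over all 8 libraries.

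**Figure D2:**
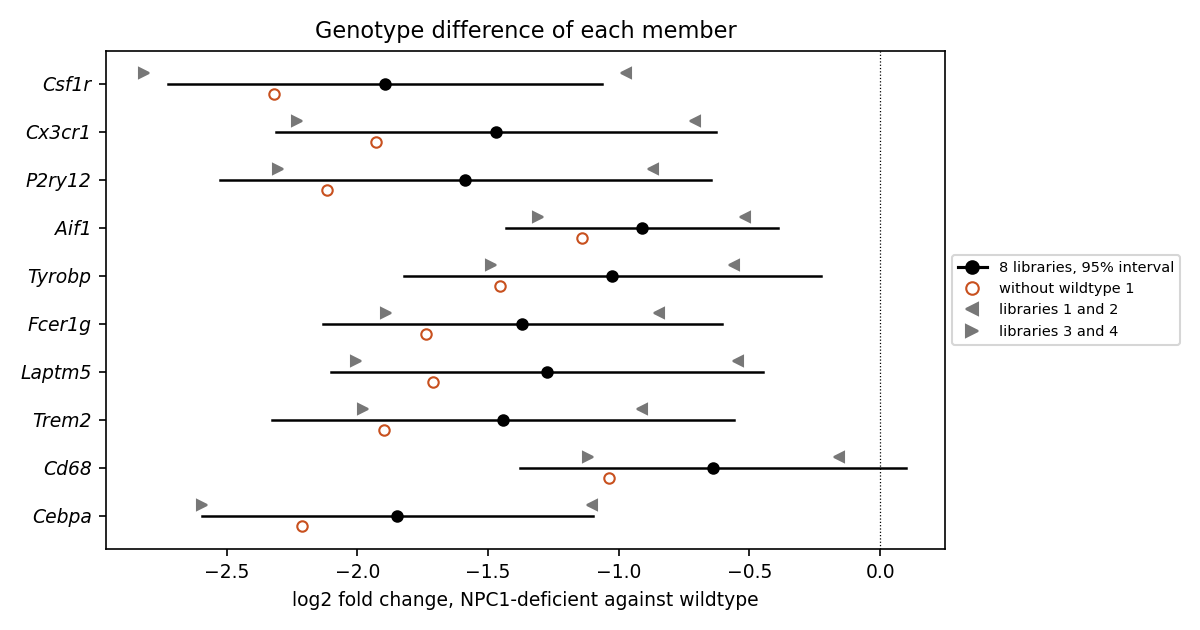
Log2 fold change of each member, NPC1-deficient against wildtype, with its 95% interval over 8 libraries (black), without WT 1 (open circles), and within libraries 1 and 2 or 3 and 4 (triangles pointing left and right). All points lie below 0, and only the interval of Cd68 reaches past it.

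The genotype difference was smaller in libraries 1 and 2 than in libraries 3 and 4 for every member, but the difference between the sets did not pass. Within libraries 1 and 2 the log2 fold changes ran from -1.10 to -0.16 (median -0.78), and within libraries 3 and 4 from -2.82 to -1.12 (median -1.99), with 2 libraries per group each. Over all genes tested the medians were 0.0014 and 0.00095. Fitted on libraries 3 and 4 alone, 9 members fell, where 1.55% of all genes did. The exception was Cd68 (limma adjusted p = 0.0565). The interaction was below 0 for all 10 members, as for 50% of all genes. As a test of the difference itself, it was called for 0 of 10 members (0.078% of all genes). Its size was largest for Csf1r, at -1.84 (SE 0.55, limma adjusted p = 0.210), and next for Cx3cr1, at -1.53 (SE 0.61, limma adjusted p = 0.310). At an unadjusted p under 0.05 it was negative for 4 members, against 7.21% of all genes. The edgeR quasi-likelihood test and DESeq2 called 0 members too. WT 1 is one of the libraries in the first set. The sets follow the strain field, and what divides them is not known.

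The members varied together across libraries. Over the 45 pairs of members, Pearson's r of log2 values across the 8 libraries averaged 0.951 and ran from 0.832 to 0.996. After removing the group means it averaged 0.935. These values describe libraries that share their depth and their microglial content. Cx3cr1 and Laptm5 tracked each other most closely, and Cd68 and Cebpa least. P2ry12 stood at 0.854 ± 0.0958 reads per read of Cx3cr1 in WT and 0.785 ± 0.0713 in NPC libraries (SD, n = 4), and the groups overlapped.

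Relative to the other members, 2 of 10 genes separated the groups, a share near that of all genes tested. Csf1r was lower and Cd68 higher in NPC libraries, and for these 2 genes WT 1 sat with the other wildtype libraries. Each member's log2 level was set against the mean log2 level of the other 9 in the same library. For Csf1r this relative level was 1.83, 1.91, 1.95 and 1.85 in WT 1 to 4 and 1.61, 1.57, 0.91 and 1.02 in NPC 1 to 4. For Cd68 it was -1.47, -1.48, -1.52 and -1.55 in WT 1 to 4 and -1.18, -0.53, -0.82 and -0.35 in NPC 1 to 4. In both genes the groups did not overlap, and the wildtype libraries lay within a narrow band. The 2 genes are described because they separated, and the value of Cd68 in WT 1 rests on 34 reads. These 2 of 10 members stand against 14.5% of all genes tested whose level relative to the members separated the groups, a share near that background. Of the 17 other microglial markers, each set against the rest of that list, 2 separated the groups. For Aif1, WT 1 was at -0.38, with the NPC libraries (-0.62 to -0.32) and apart from WT 2 to 4 (-1.30 to -0.96). For P2ry12 it was at 0.32, again within the NPC libraries (0.32 to 0.60) and below WT 2 to 4 (0.73 to 0.93). The groups overlapped for 8 members on this scale, among them Cebpa, at -1.80 to -1.08 in WT and -2.08 to -1.63 in NPC libraries.

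**Figure D3:**
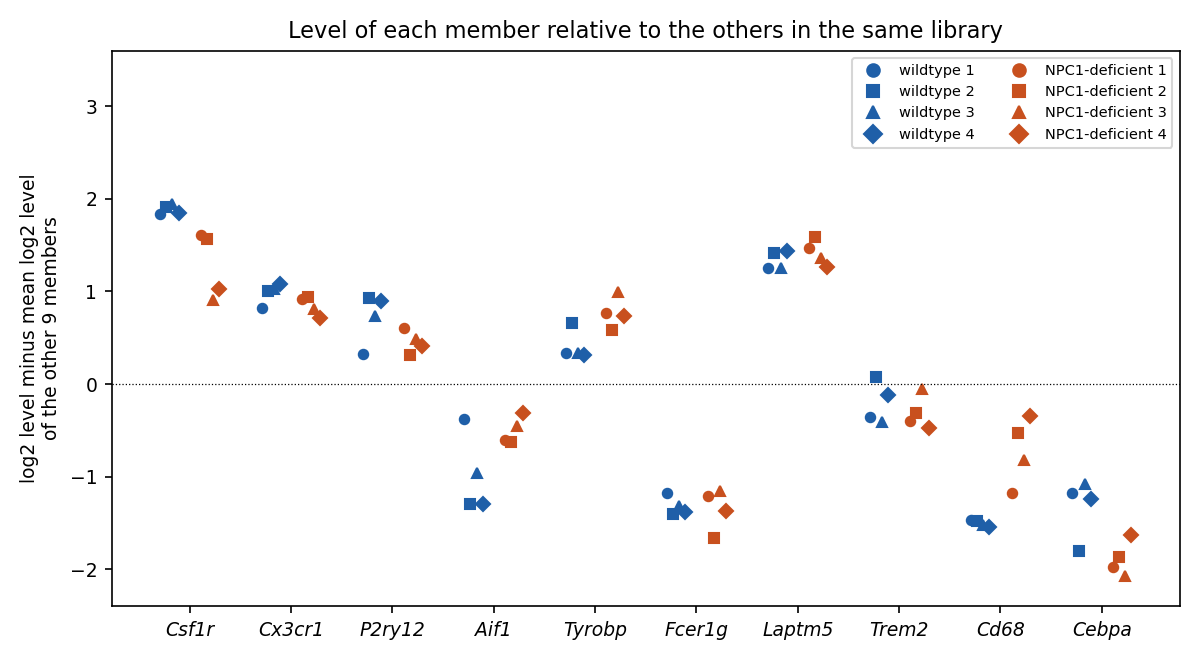
Log2 level of each member minus the mean log2 level of the other 9 members in the same library, with 1 point per library. Csf1r lies lower and Cd68 higher in NPC libraries without overlap of the groups, and WT 1 lies beside the other wildtype libraries for both. Of all genes tested, 14.5% separated the groups on this scale, so 2 of 10 members is near that share.

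The ratio of Csf1r to Cd68 reads gives the same contrast in a single value. It was 8.03, 8.35, 8.81 and 8.37 in WT 1 to 4, which is 8.39 ± 0.319 (SD, n = 4). In NPC 1 to 4 it was 5.78, 3.74, 2.97 and 2.38, which is 3.72 ± 1.49 (SD, n = 4). WT 1, whose members were at a geometric mean of 98.4 normalized reads, and NPC 1, at 105, had ratios of 8.03 and 5.78 at like levels. Their 95% counting intervals overlap, running from 5.61 to 11.8 in WT 1 (34 reads of Cd68) and from 4.33 to 7.85 in NPC 1 (55 reads). These exact Clopper-Pearson intervals cover counting error only. The intervals of NPC 2 to 4 end at 4.96, 4.07 and 3.38, below that of WT 1. This pair was chosen after its values were seen, so no test is given.

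Over all 45 pairs of members, the ratio separated the groups in 14, and 7 of the 14 involve Cd68. Among all pairs of genes tested, 4.87% separated them. The 45 pairs share 10 genes and are not independent. The ratio of Trem2 to Tyrobp, a receptor and its adaptor, also separated the groups, at 0.630 to 0.760 in WT and 0.465 to 0.569 in NPC libraries. Its 95% counting intervals overlap widely, from 0.527 to 0.752 in WT 3 and from 0.426 to 0.757 in NPC 2. Those of WT 1 to 3 overlap the interval of every NPC1-deficient library, and that of WT 4 overlaps only that of NPC 2. The ratio of Csf1r to Tyrobp was 2.19 to 2.75 in WT and 0.945 to 1.85 in NPC libraries, and the counting intervals of WT 2 and NPC 2 overlap. Both pairs are examples from the 14. Among the 17 other microglial markers, 11 of 136 pairs separated the groups.

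**Figure D4:**
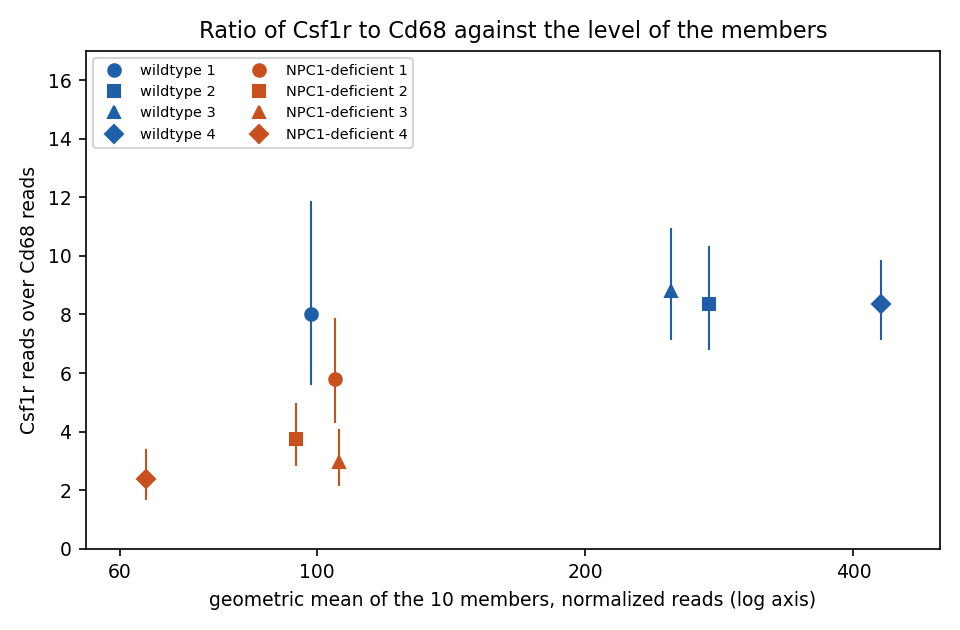
Reads of Csf1r over reads of Cd68 in each library, with 95% counting intervals, against the geometric mean of the 10 members (log axis). The 4 wildtype libraries lie between 8.03 and 8.81 at member levels from 98.4 to 430, and the NPC1-deficient libraries lie between 2.38 and 5.78 at levels from 64.2 to 106.

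Levels were compared between genes as normalized reads per kilobase of exon. In wildtype, Tyrobp was the highest at 513 ± 257 (SD, n = 4), followed by P2ry12 at 173 ± 103, Laptm5 at 164 ± 91.7, Csf1r at 149 ± 74.8, Fcer1g at 129 ± 62.9 and Cx3cr1 at 111 ± 61.5. Aif1 at 86.1 ± 30.6, Cd68 at 81.0 ± 40.7, Trem2 at 48.5 ± 27.5 and Cebpa at 43.6 ± 24.3 were lower. From P2ry12 on, neighbours in this order differed by less than the larger of their SDs. In NPC1-deficient libraries Tyrobp was again the highest per kilobase, at 228 ± 62.2. The mean of Csf1r, at 36.9 ± 12.7, was now below that of Cd68, at 46.3 ± 7.03, by less than the SD of Csf1r. In NPC 1 the order was the reverse, with Csf1r above Cd68. The lowest were again Trem2 at 15.7 ± 4.58 and Cebpa at 10.4 ± 1.24. Exonic length is the union over annotated transcripts, which lowers the value of genes with long rare transcripts.

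Other microglial markers, from a list of 17, mostly had the members' direction. None passed, 16 were lower, 15 of them at an unadjusted p under 0.05, and the median log2 fold change was -1.56. Over all genes tested, 48% were lower, and 4.37% were lower at that unadjusted p. Ctss, a protease of myeloid lysosomes, was at 479, 1783, 1370 and 2974 in WT 1 to 4 and at 581, 501, 456 and 225 in NPC 1 to 4. The complement genes C1qa and C1qb had log2 fold changes of -1.47 and -1.42. The exception was the fructose transporter gene Slc2a5, at 149 to 184 in WT and 153 to 209.6 in NPC libraries. Without WT 1, 13 of the 17 fell, where 0.851% of all genes did.

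Of 10 myeloid transcription factors, none passed, 9 were lower, where 48% of all genes were, and the median log2 fold change was -0.36. The list was uneven. Irf8, a partner of PU.1, was at 51.3, 99.9, 107 and 147 in WT 1 to 4 and at 49.0, 49.0, 33.8 and 35.1 in NPC 1 to 4. Its groups did not overlap (log2 fold change -1.19, limma adjusted p = 0.120). Spi1, which encodes PU.1 and is named after its values were seen, was at 33.1, 89.8, 85.8 and 97.8 in WT 1 to 4 and at 19.1, 37.0, 25.1 and 13.4 in NPC 1 to 4 (log2 difference -1.63, adjusted p = 0.107 by limma). Runx1, at 337 to 427 in WT and 329 to 401 in NPC libraries, overlapped between the groups. The single factor with a positive fold change was Cebpb, a relative of Cebpa, at 0.13 (limma adjusted p = 0.995). Without WT 1, Spi1, Irf8 and Sall1, which encodes a factor of microglial identity, fell. Cebpb and Sall1 were also named after their values were seen.

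In the list of microglial activation genes, 17 of 19 were tested, 14 were lower and 1 fell, with a median log2 fold change of -0.64. The gene that fell was Apoe, which encodes a lipid carrier that Müller glia also make. It was at 1340.5, 1810.4, 2036 and 3143 in WT 1 to 4 and at 751, 1018, 848 and 639 in NPC 1 to 4. The groups did not overlap, and Apoe differed by -1.31 in log2 (SE 0.21, adjusted p = 0.0482 by limma). The call was lost when WT 2, WT 3 or any single NPC1-deficient library was left out, with limma adjusted p values from 0.0668 to 0.151. The most abundant genes of this list, Ctsb, Ctsd, Fabp5 and Igf1, had log2 fold changes between -0.14 and 0.12. They are also made by other cells. Without WT 1, 7 genes of the list fell, where 0.851% of all genes did.

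**Figure D5:**
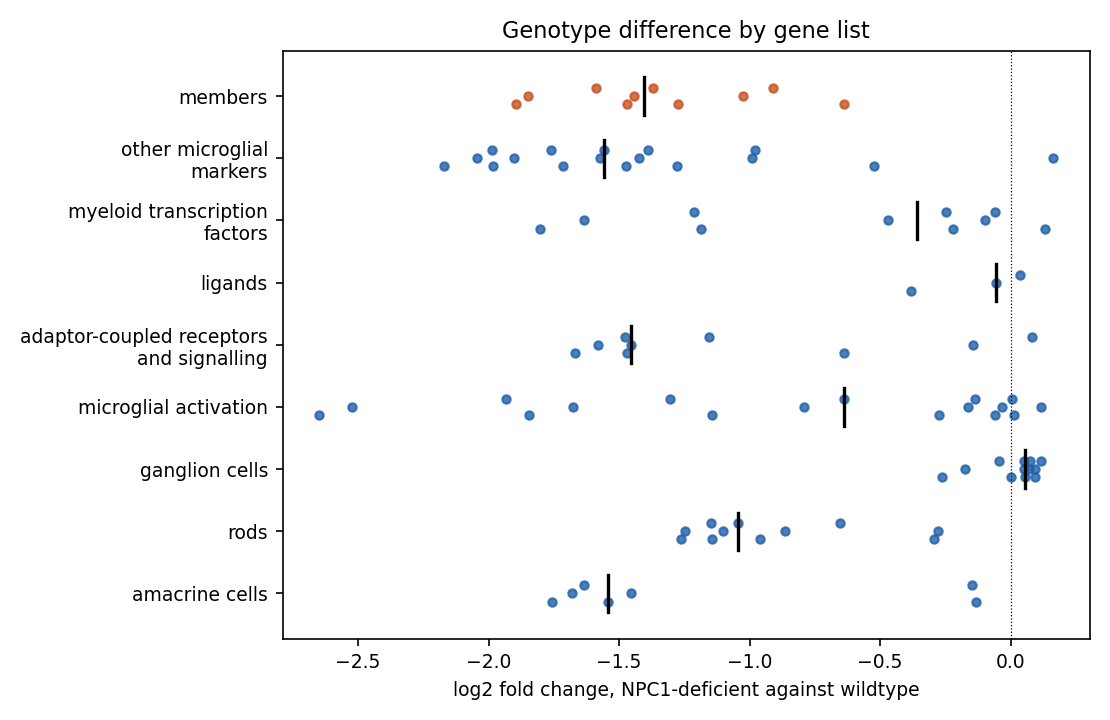
Log2 fold change (NPC1-deficient against wildtype) of each tested gene by list, with the median as a bar. The medians of the members (-1.41), the other microglial markers (-1.56) and the adaptor-coupled list (-1.46) lie far below 0, that of ganglion cell markers at 0.05.

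Markers of other macrophages and of lymphocytes were near the floor of the data. Of 12 listed markers of border macrophages, monocytes and neutrophils found in the table, 1 was tested, the hyaluronan receptor gene Lyve1, at 32.3 to 63.8 in WT and 31.6 to 66.0 in NPC libraries. Summed over the list, levels were 53.8 to 82.1 in WT and 54.5 to 116 in NPC libraries, and 8 of the 12 were at 0 in at least 1 library. Cd163, a defining marker, was at 0 in all 4 wildtype libraries and at no more than 4.13 in the NPC1-deficient ones, and a value of 0 allows up to 3 reads, or 2.69 to 3.42 normalized reads. None of 8 lymphocyte markers had a mean of 10, and their sum was 14.8 to 33.6 in WT and 16.3 to 25.8 in NPC libraries.

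Rod and amacrine RNA was also at lower levels in NPC libraries, and its part in the microglial result was not tested. All 11 rod markers were lower, where 48% of all genes were, and none passed. Their sum was 4556 to 9470 in WT and 3251 to 3977 in NPC libraries. All 7 amacrine markers were lower, none passed, and their sum was 2446 to 4719 in WT and 1413 to 2096 in NPC libraries. Both sums were separate between the groups, unlike that of the members. WT 4, the highest library for the members, had the lowest mean log2 levels of both lists among the wildtype libraries, at 7.45 for rods and 7.75 for amacrine cells. None of the other retinal markers passed either, and their median log2 fold changes were -0.65 (8 bipolar cell genes), -0.28 (6 Müller glia genes) and 0.05 (12 ganglion cell genes).

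The 6 genes outside the members whose log2 level was most like theirs were Unc93b1, C1qa, Sepp1, Ly86, Ctss and C1qb. Likeness was Pearson's r with the mean of the members' centred log2 values over 8 libraries, which share depth and cell content, and 15376 genes were ranked. Unc93b1, which carries nucleic acid sensing receptors to endosomes, came first with r = 0.998. It stood at 95.7, 295, 260.1 and 481 in WT 1 to 4 and at 86.2, 85.1, 97.0 and 56.8 in NPC 1 to 4. C1qa had r = 0.994, Sepp1, which encodes a selenium transport protein, 0.993, Ly86 0.991, Ctss 0.991 and C1qb 0.990. Of the 6, 4 stand on the list of other microglial markers. In all, 144 genes had r above 0.9.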

How the data were processed

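RNA from retinal ganglion cells of wildtype and NPC1-deficient mice at postnatal day 8 was sequenced in 8 libraries. Per the submitters' processing notes, the tools were CASAVA 1.8.2, HTSeq 0.5.4p3 and DESeq2 1.0.19, on mm10, and no role is given for any of them. The aligner is not given in the sources used here. Values in the deposited table are a normalized signal for each gene and library, which the values show to be reads divided by 1 size factor per library (199536 of 199536 were whole multiples of the library's step within 1e-06 of a read). The library kit named in the labels (TruSeq RNA v2) does not mark strand. Libraries were grouped by title.

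Of 24942 genes, the 15386 with a mean value of at least 10 were fitted as log2(value + 1) in R 4.3.3 (limma 3.58.1, trended variance), and p-values were adjusted by Benjamini-Hochberg over all of them at 0.05. All 10 members passed that minimum. The interaction of genotype with library set (libraries 1 and 2 against 3 and 4) was fitted the same way. The sets are those of the strain field, which names no batch. Alternatives were other pseudocounts, minima and scalings, robust moderation, a replicate block, the library set, leaving out libraries, and edgeR 4.0.16 and DESeq2 1.42.0 on the recovered reads.

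Members and lists were chosen with earlier results of these data known. The text names all members, Npc1, up to 4 genes of each list by mean value, any list gene past the threshold, and the 6 genes most correlated with the members. Other names are marked as chosen after their values were seen. A few list genes within the rule are left out of the text. Positions of genes are those of GENCODE M21, and promoter sequences are from RefSeq, both on the build of mm10.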

Additional observations from a re-analysis of the deposited data

Results flagged for a closer look

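In NPC 4, Laptm5 was at 142 normalized reads, while the next lowest NPC1-deficient library was at 249.6. This gap is 0.881 of the group's range, above Dixon's 95% value of 0.829 for 4 samples. Npc1 was at 139.8 in NPC 1, and the next highest NPC1-deficient library was at 70.0, a gap of 0.946 of the range. These 2 were found among 22 groups of 4 libraries examined, and chance gives about 1 in 20 where groups are independent. The members varied together, so their groups are not. In NPC 4 the members summed to 754, against 1209 to 1345 in the other NPC1-deficient libraries, so the low value was not limited to Laptm5.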

How the results depend on the processing

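The negative direction of all 10 members held under all 21 alternatives, and their median log2 fold change lay between -1.99 and -0.78. Over the 10 members and 21 alternatives, 183 of 210 calls kept their side of the threshold and 27 became calls. The main limma fit called 0 members and 16 genes. Leaving out 1 library at a time gave 0 to 10 members and 2 to 144 genes, and members were called only without WT 1. DESeq2 called 6 members and 246 genes, the library set as a term 2 members and 99 genes, libraries 3 and 4 alone 9 members and 335 genes, and libraries 1 and 2 alone 57 genes and 0 members. A minimum of 50 gave 10 genes. The interaction with library set, called for 12 genes, was called for 0 genes with no minimum, 42 with robust moderation and 203 with DESeq2. The cause of these changes was not tested. With the replicate number as a block, 34 genes and 0 members passed. The libraries share only a number: the correlations of deviations between same-numbered libraries were -0.017 to -0.066, and none matched best with its own number. Apoe lost its call with a minimum of 50 (limma adjusted p = 0.0661), with robust moderation (0.140) and in libraries 1 and 2 alone (0.0506). Members were read from as few as 22 reads (Cebpa), which limits ratios between them.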

Other observations

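Within the microglial activation list, the chemokine genes Ccl3 and Ccl4 had the most negative fold changes, and they are named here after their values were seen. Ccl4 was at 169, 614, 465 and 1147 normalized reads in WT 1 to 4 and at 151, 93.1, 58.9 and 41.3 in NPC 1 to 4. Its log2 fold change was -2.65, and its groups did not overlap (limma adjusted p = 0.0679). Ccl3 was at 93.5, 322, 239.6 and 683 in WT 1 to 4 and at 68.1, 47.0, 43.6 and 29.9 in NPC 1 to 4.

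The neutrophil genes S100a8 and S100a9 were at 15.4 and 34.5 normalized reads in NPC 1 and at no more than 3.10 and 1.86 in any other library, and they too were chosen after their values were seen.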
